A study of Mus musculus with 6 samples.

Results

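GATA1 and the nuclear proteins that work with it are encoded by 10 genes examined here: Gata1, Gata2, Tal1, Nfe2, Zfpm1, Lmo2, Ldb1, Gfi1b, Runx1 and Cbfa2t3. They were chosen by name, each as the probe set whose platform annotation gives exactly that gene symbol, and all 10 were found among the 19938 named genes of the array. Only Cbfa2t3 had 2 probe sets of its own, and the one with the higher mean over the 6 arrays was used. The arrays came from 3 Tmod3 KO and 3 WT fetal livers of mouse embryos at E14.5, an embryonic stage at which the liver makes most red cells. The KO embryos were Tmod3-/- and had a small fetal liver and anemia. The WT embryos were Tmod3+/+ with a normal phenotype. All were C57BL/6J, and per the series text each array came from an independent embryo. Tmod3 encodes tropomodulin 3, a protein that caps actin filaments at their slow-growing ends. The labels do not say how the allele was disrupted.

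GATA1 is the zinc finger factor that drives red cell maturation, and mouse embryos without it die of anemia. In erythroid precursors it binds DNA together with a complex of the basic helix-loop-helix protein TAL1, the bridging proteins LMO2 and LDB1, and the corepressor ETO2, the product of Cbfa2t3. As progenitors mature, GATA1 takes over sites held by GATA2 and shuts Gata2 down, an exchange known as the GATA switch. Its cofactor FOG1 (Zfpm1) and the repressor GFI1B act with it, NF-E2 binds nearby sites at globin and platelet genes, and RUNX1 acts earlier, in stem cells and megakaryocytes.

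Values are log2 levels as deposited, 1 per gene and array, and the number of arrays limits their precision. The 6 array medians lay between 1.36 and 1.43, which marks the region near the floor of the measurement. Tmod3 itself read 1.32, 2.36 and 1.30 in KO livers, against 4.49, 4.78 and 4.90 in WT livers, so the labels and the target gene went together. Bright genes were lower in KO livers in general: taking the 2545 genes whose level averaged 3 or more, the log2 fold change of KO minus WT had a median of -0.25, while over all genes it was 0.01. WT replicate 1 stood apart within its group, with a median of 4.28 over those bright genes against 4.72 in each of WT replicates 2 and 3, while the KO arrays had 4.32, 4.36 and 4.25. It was the lowest WT array for 77.2% of the bright genes and 38.5% of all genes. The same held for 8 of the 10 genes described here, of which 4 are bright. KO replicate 2 differed from the other arrays in sex-linked transcripts, which were looked at in addition: Xist read 1.03 on it and 5.79 or more on the other 5, and the Y-linked Eif2s3y read 4.21 on it and 1.30 or less on the others. Embryo sex is not stated in the labels, and the part of either array in the results was not tested beyond leaving it out.

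None of the 10 genes passed the test over all genes (limma, Benjamini-Hochberg adjusted p under 0.05), where 0.015% of the tested genes did. Of the 10, 1 gene, Nfe2, had an unadjusted p under 0.05 and was lower in KO livers, against a background of 6.44% of all genes. None was higher at that level, against 2.59% of all genes. Nfe2 was also the only one whose 3 KO arrays all lay below its 3 WT arrays, as did 7.1% of all genes, and none had all KO arrays above all WT arrays, as 6.14% of genes did. The 10 genes split into 6 with a negative and 4 with a positive log2 fold change, with a median of -0.09. Over all genes the median was 0.01 and over the bright genes -0.25. The direction of the median of the 10 did not hold: it was 0.06 after renewed quantile normalization, 0.17 with the arrays centred on bright genes and 0.075 without WT replicate 2.

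**Figure D1:**
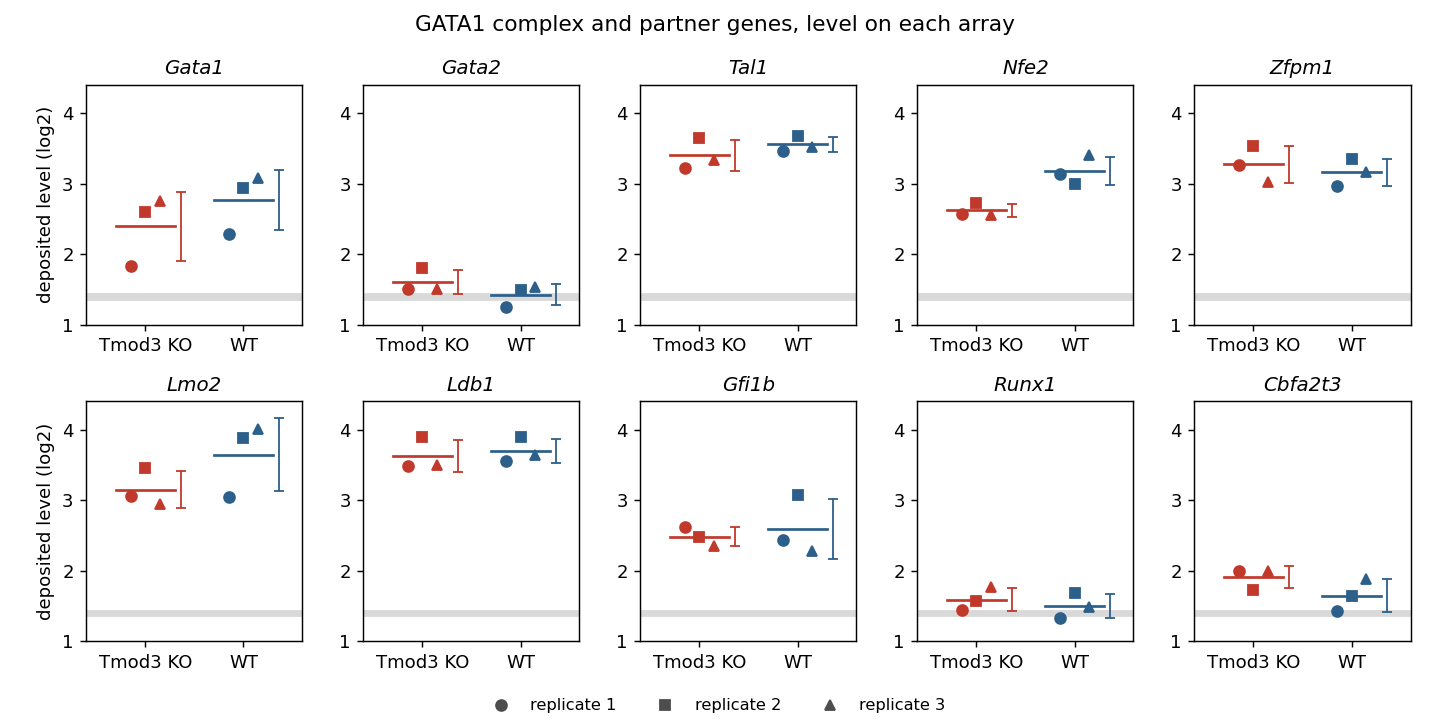
Deposited log2 level of each of the 10 genes on each array, Tmod3 KO left of WT. Points are single arrays with the replicate shown by the marker, horizontal lines are group means, bars are ± 1 SD (n = 3), and the grey band spans the array medians of 1.36 to 1.43. The groups overlap for every gene except Nfe2, and Gata2, Runx1 and part of Cbfa2t3 sit close to the band.

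Gata1 was lower on average in KO livers, by less than its spread between embryos. It read 1.83, 2.60 and 2.75 in KO livers, against 2.28, 2.94 and 3.09 in WT livers. The first replicate of each genotype was the low one, so that KO replicates 2 and 3 both lay above WT replicate 1. The means were 2.39 ± 0.49 in KO and 2.77 ± 0.43 in WT livers (SD, n = 3 each), and the log2 fold change was -0.37 (standard error 0.28, adjusted p = 0.768). Its 95% interval ran from -1.02 to 0.27. Without KO replicate 1 the value was -0.09, and without WT replicate 1 it was -0.62. The gene lies on the X chromosome; without KO replicate 2, the array with a male pattern, the value was -0.48.

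Gata2, the factor of stem cells and early progenitors that GATA1 replaces, read 1.51, 1.8 and 1.51 in KO livers, against 1.25, 1.49 and 1.53 in WT livers. All 6 values were close to the array medians. The log2 fold change was 0.18 (standard error 0.13, adjusted p = 0.760), and WT replicate 3 lay above KO replicates 1 and 3. It was 0.08 without KO replicate 2 and 0.09 without WT replicate 1.

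The GATA switch was examined as the difference of the Gata2 and Gata1 log2 levels within each array, compared between genotypes. This difference was -0.32, -0.80 and -1.24 in KO livers, against -1.03, -1.44 and -1.55 in WT livers. KO replicates 1 and 2 stood above all WT arrays, and KO replicate 3 fell between WT replicates 1 and 2. The means were -0.79 ± 0.46 in KO and -1.34 ± 0.27 in WT livers (SD, n = 3 each), a gap of 0.55 that did not pass the test (two-sided exact permutation p = 0.2, where 3 against 3 arrays cannot go below 0.1). Without KO replicate 1 the gap was 0.32. After renewed quantile normalization it was 0.38 (exact permutation p = 0.4). Gata2 lay close to the array medians. Genes at levels between 1 and 2, where Gata2 lies, had a median log2 fold change of 0.03. Between 2 and 3, where Gata1 lies, the median was -0.13. The part of these shifts in the gap was not tested. Since the difference joins 2 probe sets, only its contrast between genotypes can be read, not the ratio of the transcripts.

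Of the DNA-binding core around GATA1, Lmo2 had the widest gap between genotypes. Lmo2, the LIM-only protein that bridges TAL1 and GATA1, read 3.05, 3.45 and 2.94 in KO livers, against 3.05, 3.88 and 4.01 in WT livers. WT replicates 2 and 3 lay above all KO arrays, and WT replicate 1 lay among them. The log2 fold change was -0.50 (standard error 0.25, adjusted p = 0.634), and its 95% interval was -1.08 to 0.09. Without WT replicate 1 it was -0.80 (adjusted p = 0.0804), the lowest adjusted p that any of the 10 genes reached under the alternatives run, and without WT replicate 3 it was -0.32.

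Tal1, the helix-loop-helix factor without which no blood forms in mouse embryos, and Ldb1, whose self-association links enhancers to promoters, moved little. Tal1 read 3.23, 3.65 and 3.33 in KO livers, against 3.47, 3.68 and 3.52 in WT livers. Ldb1 read 3.49, 3.89 and 3.50 in KO livers, against 3.56, 3.89 and 3.64 in WT livers. In both genes replicate 2 was the high array of each genotype. The log2 fold changes were -0.16 for Tal1 (95% interval -0.46 to 0.15, adjusted p = 0.800) and -0.07 for Ldb1 (-0.41 to 0.27, adjusted p = 0.932). Tal1 ranged from -0.28 without KO replicate 2 to -0.07 without KO replicate 1.

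The cofactors of GATA1 showed no common direction. Zfpm1, which encodes FOG1, the zinc finger partner through which GATA1 recruits the NuRD complex, read 3.27, 3.54 and 3.02 in KO livers, against 2.97, 3.35 and 3.16 in WT livers. Its log2 fold change was 0.11 with a 95% interval of -0.25 to 0.48 (adjusted p = 0.890), and it was -0.02 without KO replicate 2. Gfi1b, a repressor that recruits LSD1 and is required for erythroid and megakaryocyte maturation, read 2.62, 2.48 and 2.35 in KO livers, against 2.44, 3.08 and 2.28 in WT livers. WT replicate 2 was the one high value, and the log2 fold change of -0.11 (adjusted p = 0.919) was 0.13 without it. Neither gene therefore kept its sign with 1 array left out.

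Cbfa2t3 encodes ETO2, the corepressor that holds the TAL1 complex in its repressive state before terminal maturation. Its brighter probe set read 2.0, 1.73 and 1.99 in KO livers, against 1.42, 1.64 and 1.88 in WT livers. KO replicates 1 and 3 lay above all WT arrays and KO replicate 2 lay below WT replicate 3. The log2 fold change was 0.26 (standard error 0.14, 95% interval -0.07 to 0.59, adjusted p = 0.675). The second probe set did not go with it: it read 1.39, 1.79 and 1.28 in KO livers, against 1.6, 1.45 and 1.53 in WT livers, a log2 fold change of -0.04. With the mean of both probe sets the value was 0.11. For the brighter one it ranged from 0.15 without WT replicate 1 to 0.38 without WT replicate 3.

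Nfe2 had the clearest difference of the 10. It encodes the larger, tissue-restricted subunit of NF-E2, a basic leucine zipper factor that pairs with small MAF proteins and is best known for its need in platelet release and for its sites in the globin locus control region. Nfe2 read 2.57, 2.73 and 2.56 in KO livers, against 3.14, 3.0 and 3.40 in WT livers. The highest KO array lay below the lowest WT array, and WT replicate 1, low for most bright genes, was not the low one here. The means were 2.62 ± 0.09 in KO and 3.18 ± 0.21 in WT livers (SD, n = 3 each). Their difference on the log2 scale was -0.56 (standard error 0.13, 95% interval -0.85 to -0.26). This is 1.47-fold lower as measured. The unadjusted p was 0.00242 and the adjusted p 0.264, so the difference did not pass over all genes. Among the 2111 genes with a mean level between 2 and 3, where Nfe2 lies, the median log2 fold change was -0.13, and 306 had all KO arrays below all WT arrays.

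Runx1, a stem cell and megakaryocyte factor that stays at low level in erythroid cells, lay near the floor. It read 1.44, 1.57 and 1.76 in KO livers, against 1.34, 1.68 and 1.49 in WT livers. The log2 fold change was 0.09 with a 95% interval of -0.22 to 0.39 (adjusted p = 0.897), and the groups overlapped. It was 0.0018 without KO replicate 3, 0.0063 without WT replicate 1 and 0.18 without WT replicate 2.

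**Figure D2:**
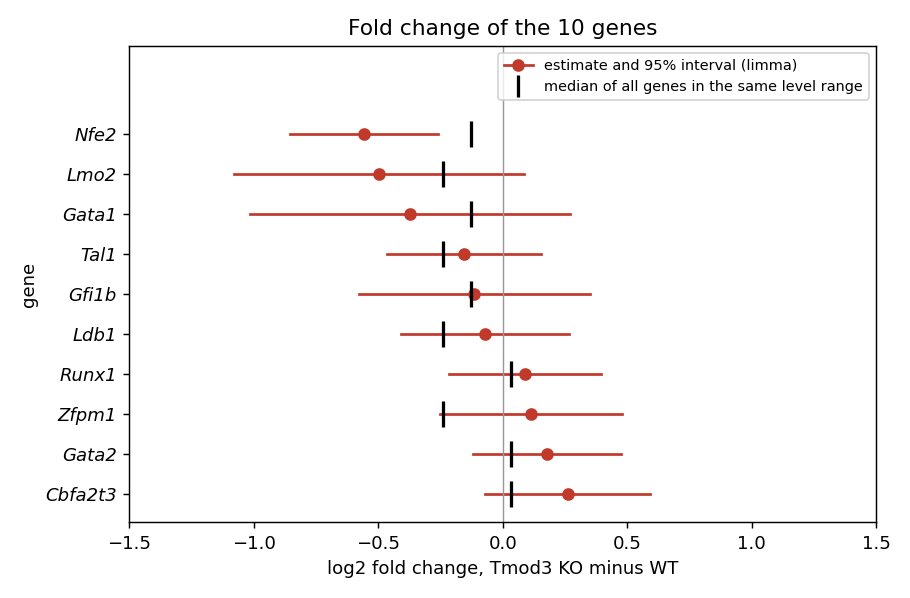
Log2 fold change (Tmod3 KO minus WT) of each of the 10 genes with its 95% interval from limma. Black ticks give the median of all genes in the same range of mean level (1 log2 unit wide). The interval of Nfe2 (-0.85 to -0.26) alone leaves out 0, and it also leaves out the median of its level range, -0.13. Nfe2 averages 2.90, near the range of 3 to 4, whose median of -0.24 lies close to the end of the interval. The intervals are not adjusted for the number of genes.

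The sign of several of these values changed with how the arrays were scaled. The medians over bright genes were 4.32, 4.36 and 4.25 on KO arrays, against 4.28, 4.72 and 4.72 on WT arrays. WT replicate 1 thus lay among the KO arrays, and why the arrays differ in this was not tested. After the arrays were quantile normalized again, Tal1 (0.05), Ldb1 (0.15) and Gfi1b (0.02) turned positive, and 7 of the 10 genes had a positive log2 fold change. The same 3 genes turned positive when each array was centred on its bright genes (0.11, 0.19 and 0.15). That centring moves the median of all genes to 0.27, and values under it are relative to bright genes. Nfe2 (-0.40 and -0.30), Lmo2 (-0.29 and -0.23) and Gata1 (-0.22 and -0.11) kept a negative value under both scalings, given in that order. Gata2, Zfpm1, Runx1 and Cbfa2t3 kept a positive one.

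Zfpm1 had its groups apart under the first of these scalings. After renewed quantile normalization it read 3.43, 3.55 and 3.17 in KO livers, against 3.13, 3.14 and 2.92 in WT livers, with all KO arrays above all WT arrays, a log2 fold change of 0.32 and an unadjusted p of 0.0378 (adjusted p = 0.604). Over all genes, 3.05% were then higher at an unadjusted p under 0.05. Groups were apart in the higher direction for 5.37% of all genes and in the lower direction for 7.54%. Nfe2 kept its groups apart under that normalization, at 2.69, 2.74 and 2.66 in KO livers, against 3.30, 2.83 and 3.15 in WT livers. Centred on bright genes it did not: KO replicates 2 and 3, at 2.81 and 2.75, lay above WT replicate 2 at 2.72. Under that centring Gata2 (0.44), Zfpm1 (0.38), Runx1 (0.35) and Cbfa2t3 (0.52) had all KO arrays above all WT arrays, as had 14.9% of all genes, since dim genes were carried upward by it. No gene of the 10 passed over all genes under either scaling.

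**Figure D3:**
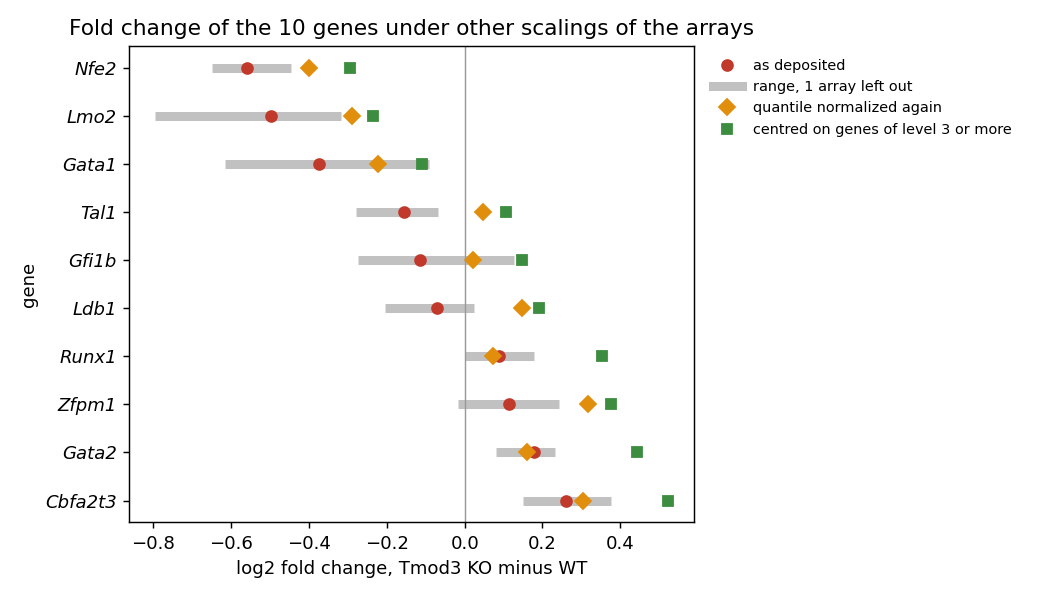
Log2 fold change (Tmod3 KO minus WT) of the 10 genes as deposited, after renewed quantile normalization and after centring each array on genes whose level averaged 3 or more. Grey bars span the values with 1 array left out. Nfe2, Lmo2 and Gata1 stay below 0 throughout, Gata2, Runx1 and Cbfa2t3 stay above 0, and Tal1, Gfi1b, Ldb1 and Zfpm1 have values on both sides.

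Partners of the 10 proteins outside the set were taken from lists. Among 15 measured genes for E proteins, LIM proteins and Id inhibitors, 0 passed over all genes, 0 were lower and 1 higher at an unadjusted p under 0.05, and the median log2 fold change was -0.06. Over all genes, 6.44% were lower and 2.59% higher at that p. The higher one of the 15 was Id1, an inhibitor that keeps E proteins from binding DNA with TAL1. It read 1.90, 1.78 and 1.66 in KO livers, against 1.54, 1.46 and 1.45 in WT livers (log2 fold change 0.30, unadjusted p = 0.0219, adjusted p = 0.453), all near the floor. Tcf12 and Tcf3 encode the E proteins HEB and E2A, with which TAL1 dimerizes. Tcf12 read 2.49, 3.05 and 2.86 in KO livers, against 3.07, 3.08 and 3.17 in WT livers, and Tcf3 read 1.68, 2.03 and 1.79 against 2.05, 2.31 and 1.95. Their log2 fold changes were -0.31 and -0.27 (adjusted p = 0.599 and 0.627), with the groups apart for Tcf12 and overlapping for Tcf3.

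Of 17 measured paralogs and dimer partners, 0 passed over all genes, 1 was lower and 0 were higher at an unadjusted p under 0.05 (6.44% and 2.59% of all genes), with a median of 0.04. The lower one was Nfe2l2, a relative of Nfe2 that encodes NRF2, the regulator of antioxidant genes. It read 3.77, 3.89 and 3.99 in KO livers, against 4.15, 4.65 and 4.28 in WT livers, with no overlap (log2 fold change -0.47, unadjusted p = 0.0115, adjusted p = 0.396). Mafk, a small MAF partner of NF-E2, also had its groups apart, at 1.27, 1.45 and 1.36 in KO livers, against 1.5, 1.64 and 1.6 in WT livers, but close to the floor (log2 fold change -0.23, adjusted p = 0.572). Nfe2l2 and Mafk were the only genes of the 17 with their groups apart, against 7.1% of all genes apart in that direction. That share differs by level: it was 24% at levels between 4 and 5, where Nfe2l2 lies. Between 1 and 2, where Mafk lies, it was 3.8%. The other small MAF genes and NF-E2 relatives overlapped between groups, with 0.07 for Mafg, 0.00 for Maff, -0.14 for Nfe2l1 and -0.07 for Nfe2l3. Runx1t1, the ETO relative of Cbfa2t3, had -0.30 with overlapping groups (adjusted p = 0.644).

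Corepressors and coactivators that the complex recruits were read next, where 6.44% of all genes were lower and 2.59% higher at an unadjusted p under 0.05. Of 20 measured genes of the NuRD and CoREST corepressor complexes, 1 was lower and 1 higher at an unadjusted p under 0.05, 0 passed over all genes, and the median was -0.09. Rcor2 (0.29) and Rcor3 (-0.30), paralogs of the CoREST scaffold, were these 2 genes, both near the floor and with their groups apart, and Mbd2, a methyl-CpG binding subunit of NuRD, had -0.29 with its groups apart in the lower direction (adjusted p = 0.446, 0.516 and 0.577). Over all genes, 7.1% were apart in the lower and 6.14% in the higher direction. At levels of 6 or more, where Mbd2 lies, 18.6% were apart in the lower direction. Kdm1a, which encodes LSD1 and was picked out after its value was seen, had 0.00. Of 8 measured coactivators, 1 was lower at an unadjusted p under 0.05, and the median was -0.17. This was Smarcb1, a subunit of the SWI/SNF remodelling complex (-0.34, adjusted p = 0.499), followed by Ccar1 (-0.38) and the acetyltransferase gene Ep300 (-0.35), with adjusted p of 0.601 and 0.640.

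The DNA around the starts of these genes was searched for short motifs of GATA factors and NF-E2, because both the complex and its targets are described here. A match is a description of the sequence, not a bound site. The RefSeq table of GRCm38.p6 held 14 windows for 8 of the 10 genes, each of 300 bases with 250 before the start and 50 after it. Nfe2 and Lmo2 had no entry. The GATA motif was searched as AGATAA or TGATAA, 6 letters, on both strands, and the NF-E2 motif as TGANTCA, 7 letters, on both strands, and no 2 matches overlapped. Any base was allowed at N, and the bases beside the 7 letters were not part of the search. Of the 14 windows, 4 held a GATA motif (28.6%), against 18.6% of all 32851 windows of this length, and 0 held an NF-E2 motif, against 7.81% of all. The 4 belong to Tal1, Gfi1b, Cbfa2t3 and Ldb1, while the single window of Gata1 and those of Gata2, Zfpm1 and Runx1 have no such letters. Each stretch below runs 5′ to 3′ on the gene's strand, with 30 bases on either side where the window allows and the motif in capitals. They lie at chr4:115056191-115056256 (plus strand, Tal1), chr2:28622067-28622132 (minus strand, Gfi1b), chr8:122699192-122699257 (minus strand, Cbfa2t3) and chr19:46037235-46037320 (minus strand, Ldb1).
Tal1: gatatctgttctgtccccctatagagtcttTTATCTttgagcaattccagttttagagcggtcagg
Gfi1b: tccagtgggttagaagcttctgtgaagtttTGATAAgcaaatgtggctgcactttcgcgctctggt
Cbfa2t3: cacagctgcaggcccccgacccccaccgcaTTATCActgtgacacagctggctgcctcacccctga
Ldb1: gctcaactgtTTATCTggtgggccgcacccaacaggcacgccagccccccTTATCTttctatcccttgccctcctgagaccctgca

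Genes that GATA1 is known to switch on in erythroid cells had lower values in KO livers throughout, none past the threshold over all genes. The list was drawn up with earlier results of these data known, so its counts describe the list and are not a test. Of 18 measured genes, all 18 had a negative log2 fold change, 9 had an unadjusted p under 0.05 and 8 had all KO arrays below all WT arrays. Over all genes, 6.44% were lower at that p and 7.1% were apart in that direction. The median of the 18 was -0.40. Over all bright genes it was -0.25, so most bright genes were negative as well. Most of the 18 are bright: among the 14 with a mean level of at least 3, 7 had an unadjusted p under 0.05 in the lower direction, against 26.6% of all genes that bright, and 6 were apart, against 21.3%. Of the complex, 4 genes are that bright (Tal1, Zfpm1, Lmo2 and Ldb1), and 0 of them met either criterion.

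The 3 genes of that list with the smallest p were Epb42, Trim10 and Alas2. Epb42, which encodes protein 4.2 of the red cell membrane, read 4.35, 4.17 and 3.97 in KO livers, against 4.61, 4.97 and 5.20 in WT livers. Trim10, an erythroid ubiquitin ligase gene, read 4.42, 3.98 and 3.95 in KO livers, against 4.56, 5.12 and 5.32 in WT livers. Alas2, the enzyme that opens heme synthesis in red cell precursors, read 5.07, 5.16 and 4.68 in KO livers, against 5.48, 5.51 and 5.80 in WT livers. Each of the 3 had its groups apart and none passed over all genes (log2 fold changes -0.76, -0.88 and -0.63, adjusted p = 0.250, 0.287 and 0.295). The rule that named the genes took the smallest p, so these are the low end of the list. At its other end, Btg2 (-0.03) and Bcl2l1 (-0.11), picked out after their values were seen, had values closest to 0.

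**Figure D4:**
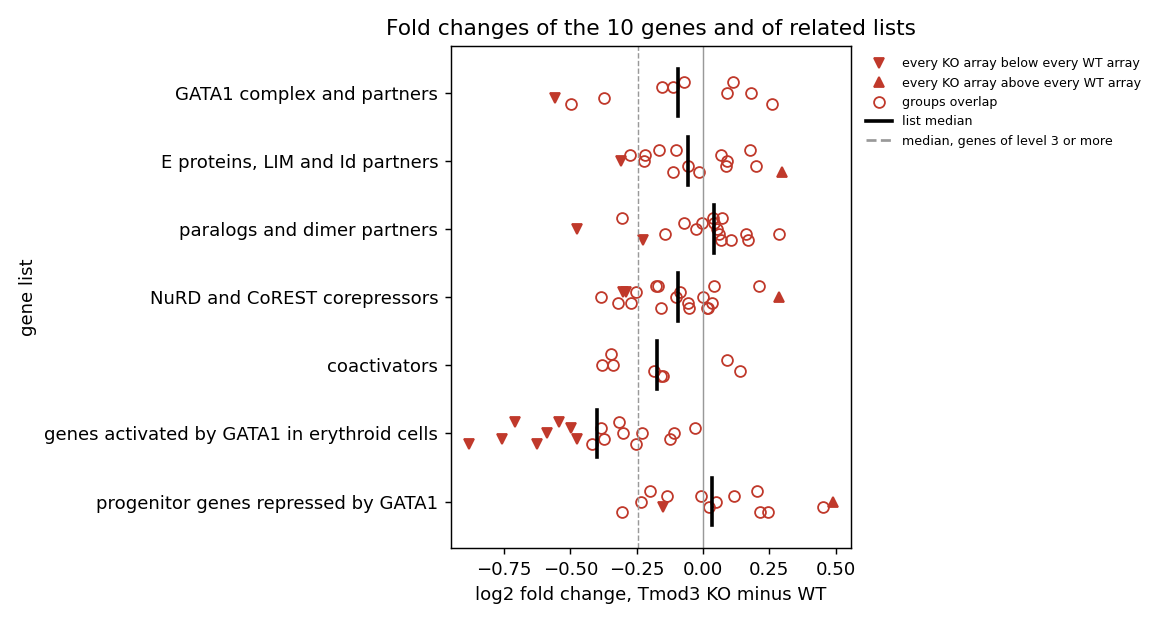
Log2 fold change (Tmod3 KO minus WT) of each measured gene in the set of 10 and in 6 related lists. Filled triangles are genes whose groups do not overlap, open circles those whose groups do, black bars are list medians, and the dashed line is the median of genes with a level of at least 3 (-0.25). All 18 genes activated by GATA1 lie below 0, while the 10 genes of the complex and its partners lie on both sides. Of the 18, 14 have a level of at least 3, and of the 10 only 4 do. The lists were chosen with earlier results of these data known.

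These 3 genes carry the motif near their start, as did 10 of 17 windows of the activated list (58.8%, from 13 genes with an entry), against the 18.6% of all windows given above. The list was drawn up from known GATA1 targets, so this share describes the list and was not tested. In the list of progenitor genes repressed by GATA1, 1 of 17 windows (5.88%) held it. The stretches of Epb42 (chr2:121037068-121037127, minus strand), Trim10 (chr17:36869381-36869554, plus strand) and Alas2 (chrX:150547301-150547366, plus strand) of GRCm38.p6 are shown because these genes had the smallest p. In Trim10 the second run of capitals is an NF-E2 motif, the only one in the list.
Epb42: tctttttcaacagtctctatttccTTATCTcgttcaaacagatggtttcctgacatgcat
Trim10: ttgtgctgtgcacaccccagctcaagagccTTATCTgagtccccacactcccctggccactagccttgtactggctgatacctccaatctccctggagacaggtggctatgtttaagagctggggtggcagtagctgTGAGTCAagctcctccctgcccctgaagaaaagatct
Alas2: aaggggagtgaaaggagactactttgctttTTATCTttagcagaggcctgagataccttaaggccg

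The median of the activated list stayed below 0 under both scalings, but the number of genes at an unadjusted p under 0.05 was lower when the arrays were centred on bright genes, as was the share of all genes. The median was -0.25 after renewed quantile normalization, with 15 of 18 genes below 0 and 8 lower at an unadjusted p under 0.05, against 4.66% of all genes. Centred on bright genes, the median was -0.14, with 13 of 18 below 0 and 3 lower at that level, against 1.32% of all genes. Under that centring the limma fit gave every gene the same variance, unlike the main fit. Its counts by p therefore do not show the scaling alone. With 1 array left out, the median lay between -0.60 and -0.29.

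Progenitor genes that GATA1 represses showed no common direction. Of 14 measured, 8 had a positive and 6 a negative log2 fold change, with a median of 0.04, and 0 passed over all genes. Myc, the growth factor response gene that falls as erythroid cells mature, was the only one with an unadjusted p under 0.05. Over all genes, 2.59% were higher and 6.44% lower at that p. It read 5.95, 5.63 and 5.95 in KO livers, against 5.47, 5.61 and 4.99 in WT livers (log2 fold change 0.49, unadjusted p = 0.0239, adjusted p = 0.467). All KO arrays lay above all WT arrays, by a narrow margin between KO replicate 2 and WT replicate 2. Myb, a progenitor factor, had all KO arrays below all WT arrays, with a log2 fold change of -0.15. Hhex (0.45) and Flt3 (0.24), a homeobox gene and a receptor of early progenitors, overlapped between groups (adjusted p = 0.678 and 0.690).

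The liver at this stage mixes erythroid cells with others, and in bulk RNA fewer cells of a type and less RNA per cell cannot be told apart. The 7 measured erythroid markers had mean levels of 4.90, 5.0 and 4.64 in KO livers, against 5.15, 5.53 and 5.54 in WT livers, well above the array medians, as the tissue label implies. All 7 had a negative log2 fold change and 0 passed over all genes. All 7 are bright, and 5 were lower at an unadjusted p under 0.05, against 26.6% of bright genes. All 7 also stand in the activated list, so the 2 lists are not separate evidence. KO replicate 3 was lowest for these markers, whereas Gata1 was lowest in KO replicate 1 and Nfe2 was nearly even over the KO arrays.

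Markers of other cells were read beside them. The 9 measured hepatocyte markers had mean levels of 6.87, 6.93 and 5.99 in KO livers, against 6.94, 7.27 and 7.37 in WT livers, with a median log2 fold change of -0.64 and 5 genes lower at an unadjusted p under 0.05. Of the 9, 8 are bright, and all 5 are among them, against the same 26.6%. The list split into 7 negative and 2 positive values, the positive ones being Afp (0.04) and Trf (0.05). KO replicate 3 was lowest here too. Nfe2, Gata1, Gata2, Tal1, Gfi1b and Runx1 are also genes of megakaryocytes or mast cells. The 9 measured megakaryocyte markers had means of 3.11, 3.12 and 2.96 in KO livers, against 3.09, 3.30 and 3.26 in WT livers, with a median of -0.09 and 4 of 9 positive. Ppbp (-0.72), the lowest of the list, and Tubb1 (-0.29) were the 2 genes with all KO arrays below all WT arrays, as were 7.1% of all genes. The share was 18.6% at levels of 6 or more, where Ppbp lies, and 3.8% between 1 and 2, where Tubb1 lies. Pf4, a platelet chemokine gene like Ppbp and picked out after its value was seen, had -0.10 and overlapped. Of the 9 markers of mast cells, basophils and eosinophils, 6 had a mean level below the array median, and the median log2 fold change was -0.02. Macrophage markers had a median of -0.19 (8 of 10 negative), stem and progenitor markers -0.08 (5 of 8 negative) and neutrophil markers -0.03 (5 of 8 negative). Other lists went the other way: stellate and mesenchymal markers had a median of 0.15 (7 of 8 positive), endothelial markers 0.10 (7 of 9 positive) and lymphoid markers 0.06 (7 of 8 positive). Col1a1, a collagen gene of mesenchymal cells (0.38, unadjusted p = 0.00367, adjusted p = 0.299), and Oit3, a gene of liver sinusoidal endothelium (0.41, unadjusted p = 0.0100, adjusted p = 0.379), had all KO arrays above all WT arrays, as had 6.14% of all genes. The part of these cell types in the values of Nfe2 and the other genes was not tested.

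Genes with the pattern most like Gata1 or Nfe2 were taken from 2519 genes whose level averaged 3 or more, leaving out symbols of gene models and clones, by the root mean square difference over the 6 arrays after each gene was centred on its own mean. For Nfe2 these were Bud31 (0.0911), Ddx47 (0.0916), Rab7 (0.0931), Fnta (0.0932) and Ahsa2 (0.0948), with log2 fold changes of -0.58, -0.51, -0.48, -0.46 and -0.52 in that order. For Gata1 they were Dlg1 (0.128), Wdr12 (0.131), Ivns1abp (0.132), Dctn5 (0.137) and Neil3 (0.138), which share its low first replicate in both genotypes. Their log2 fold changes lay between -0.45 for Dctn5 and -0.13 for Ivns1abp. All these genes were picked for closeness over the same 6 arrays, so their fold changes and shared low arrays follow from the choice. Nfe2 and Gata1 themselves average 2.90 and 2.58, below the level asked of the candidates.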

How the data were processed

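The deposited values are log2 expression values, 1 per probe set and array, from Affymetrix MoGene 1.0 ST arrays, made by the authors, with RMA named in the submitters' processing notes. The log base was read from the range of the values. The upper part of the deposited values was not level between arrays, with bright-gene medians from 4.25 to 4.72. Of 28853 probe sets, 21789 had 1 gene symbol in the platform annotation, 1621 had several and 5443 were not named. Of those with 1 symbol, 21698 were found in the RefSeq gene table of GRCm38.p6. The brightest probe set over 6 arrays stood for each of 19938 genes. Groups follow the genotype labels, 3 Tmod3 KO and 3 WT. The contrast KO minus WT came from lmFit and eBayes of limma 3.58.1 (R 4.3.3) on the unfiltered genes. P-values were adjusted by Benjamini-Hochberg over every gene tested, and 0.05 was the threshold. The code was tested on simulated data. Named genes were the 3 of smallest p in each pathway list and the 5 nearest patterns. The genes and lists were chosen with earlier results of these data known. Alternatives were renewed quantile normalization, other centrings, a filter at a level of 2, the mean of probe sets, a replicate block and leaving out each array. The fit was also run with an intensity trend and robust fitting. Promoter sequences are RefSeq's.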

Additional observations from a re-analysis of the deposited data

How the results depend on the processing

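Over 13 settings, 118 of 127 values of the 10 genes kept their direction, 9 reversed, and none passed over all genes (lowest adjusted p = 0.0804). The replicate block, the filter at a level of 2 and the fit with an intensity trend leave the log2 fold changes as they were. Their values could not reverse, and they are counted among the 118. The mean of probe sets changed only Cbfa2t3. With 1 array left out, Zfpm1 ranged from -0.017 to 0.24, Ldb1 from -0.20 to 0.025 and Gfi1b from -0.28 to 0.13. Renewed quantile normalization reversed Tal1 (0.048), Ldb1 (0.15) and Gfi1b (0.021), as did centring on bright genes (0.11, 0.19 and 0.15). With 1 array left out, 1 to 3 genes were lower and 0 to 1 higher at an unadjusted p under 0.05, 1 to 3 lay lower and 0 to 2 higher without overlap, and the median ran from -0.17 to 0.075 (0.061 after renewed quantile normalization). The share of all genes was not computed for these fits. Groups of 2 and 3 arrays also come apart more readily than groups of 3, so these counts cannot be set against the main shares. Renewed quantile normalization gave 1 gene higher at that p and 1 higher without overlap (all genes 3.05% and 5.37%). Centring on bright genes gave 0 lower and 2 higher at that p (all genes 1.32% and 13.2%), 0 lower and 4 higher without overlap (1.59% and 14.9%), and a median of 0.17. For the genes activated by GATA1 it gave 3 of 18 lower at that p, 5 lower without overlap, against the same shares of all genes, and a median of -0.14 (alternatives for this list were chosen after seeing the data). The list's count without overlap was 8 to 13, and its median -0.60 to -0.29, with 1 array left out. The same limit holds for that count. Replicate numbers did not pair the samples (correlations of deviations 0.107, 0.0566 and -0.105). The replicate block gave 2 genes lower at an unadjusted p under 0.05, and the share of all genes was not computed for it. Counts by p under the centring on bright genes also differ because that fit gave every gene the same variance. The causes of these changes were not tested. Levels near the array medians limit what can be read for Gata2, Runx1 and Cbfa2t3.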
